A study of Mus musculus with 4 samples.

Results

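This account follows 10 genes picked for a signal difference between mouse lung RNA labelled Pla2g3 knockout and wild type, in controls and after antigen challenge. Not all of them showed it in both forms of the data described below. The genes are Cryaa, Psca, Adcy1, Camk2b, Tmem212, Samd4, Prim2, Syt15, Ces1b and Unc93a2. They are 10 of the 31123 genes on the array and have 15 of its 39410 probes. They were picked by name because earlier results on these same arrays showed large genotype differences, with chromosome 8 left aside and no threshold stated. Their genotype differences are therefore descriptions of what was picked, are not tested, and support nothing by themselves. In the files 9 of the genes carry these names. The tenth, Unc93a2, is listed there as Gm9992 and was matched through its RefSeq accession.

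Per the labels, total RNA from whole lung was hybridised to Agilent 1-colour arrays, 1 array per group and each from RNA pooled from 4 samples. The groups were Pla2g3-/- lung of controls, Pla2g3+/+ lung of controls, Pla2g3-/- lung after antigen challenge and Pla2g3+/+ lung after antigen challenge. Challenge means sensitisation with 10 µg ovalbumin and 1.3 mg alum on days 0 and 14, inhalation of 1% ovalbumin for 30 min on days 26, 27 and 28, and harvest 48 h later, a model of allergic asthma. The labels attach this schedule to every group, and do not say how the controls were handled or which strain, sex, age and deletion of Pla2g3 were used.

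With 1 array per group no difference below has a replicate check. Pooling hides the spread between mice, and a difference between pools cannot be told apart from one between genotypes. Values come in 2 forms: the authors' deposited value table and the scanner files. Across probes a table column correlated with the scanner array of the same name at 0.915 to 0.923, and with arrays of other names at 0.915 to 0.922, while any pair within a source had 0.986 or higher. Both sources are therefore given, the table first, and neither is a repeat of the other. A level is a log2 signal relative to the 75th percentile of its own array, so a level below 0 lies under that percentile. Levels are compared between arrays and never between genes. Scanner differences carry Agilent's error for reading the spots, printed as spot error, which leaves out the variation between mice, and the table gives no error. All 14 alveolar epithelial markers were above background on every table column, and 12 to 13 of 14 on the scanner arrays. Marker levels nevertheless differed between the sources. The summed level of 12 endothelial markers, in units of the 75th percentile, was 161 to 173 in the table and 5.28 to 6.94 in the scanner files. That of 12 squamous epithelium markers was 3.24 to 4.21 in the table and 52.6 to 61.4 in the scanner files. The reason was not tested.

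Pla2g3, the targeted gene, was not low in the arrays labelled knockout. Its table level was -0.20 on the KO-labelled and -4.66 on the WT-labelled control, and 0.06 on the KO-labelled and -4.60 on the WT-labelled challenged array. Among the scanner arrays the KO-labelled control had 0.14 and the WT-labelled control -3.05, and the KO-labelled challenged array had 1.07 against -2.83 on the WT-labelled one. A second Pla2g3 probe, at mm9 chr11:3393127-3393186, was higher on the KO-labelled arrays too. Its differences were 4.02 in controls and 3.88 after challenge in the table, and 2.12 and 4.56 in the scanner files. Which part of the gene was deleted is not stated in the labels, nor whether these probes lie in it. Why the signal was higher on the KO-labelled arrays, and whether the genotype labels are exchanged, was not tested. Every direction below is that of the KO-labelled library minus the WT-labelled one.

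The 10 genes belong to unrelated families. Adcy1 and Camk2b both answer to calcium: calcium-bound calmodulin activates the adenylyl cyclase that makes cyclic AMP, and the kinase subunit that phosphorylates many neuronal and muscle proteins. Cryaa is a small heat shock protein best known as a chaperone of the eye lens, and Psca is a small protein of the Ly6 family tethered to the surface of epithelial cells. Syt15 belongs to the synaptotagmins, which act in vesicle traffic, Unc93a2 to the family of Unc93b1, which escorts Toll-like receptors, and Tmem212 encodes a membrane protein found in multiciliated cells. Ces1b is a carboxylesterase, an enzyme class that cleaves esters of drugs and lipids, Prim2 is the large subunit of the DNA primase that starts new DNA strands, and Samd4 (Smaug in flies) binds RNA hairpins and represses translation.

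The probes below are the members' array oligonucleotides of 60 bases that the files place in the protein-coding part of a transcript. They are shown because several results turn on which probe of a gene is read. Each is written 5' to 3' as in the scanner files, and capitals mark the longest run of at least 14 bases that also occurs in a probe of another gene. Such a run occurs in 10 of the 15 member probes and in 55.9% of all probes on the array, so it does not set the members apart.
Unc93a2, probe A_55_P2056344, mm9 chr17:13586891-13586950, minus strand: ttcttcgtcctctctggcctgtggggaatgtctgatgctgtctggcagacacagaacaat
Unc93a2, probe A_55_P1998086, mm9 chr17:7580787-7580846, minus strand: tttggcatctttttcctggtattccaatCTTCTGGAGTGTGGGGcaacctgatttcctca
Cryaa, probe A_55_P2007645, mm9 chr17:31815402-31815461, plus strand: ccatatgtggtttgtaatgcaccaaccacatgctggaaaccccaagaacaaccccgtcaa
Psca, probe A_51_P253897, mm9 chr15:74546879-74546938, plus strand: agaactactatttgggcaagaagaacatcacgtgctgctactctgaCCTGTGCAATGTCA
Camk2b, probe A_55_P2150578, mm9 chr11:5872636-5872695, minus strand: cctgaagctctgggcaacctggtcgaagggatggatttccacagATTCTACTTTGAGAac
Syt15, probe A_55_P2000978, mm9 chr14:35040199-35040258, plus strand: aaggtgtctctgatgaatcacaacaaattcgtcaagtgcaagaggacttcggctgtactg
Ces1b, probe A_52_P282905, no position in the files: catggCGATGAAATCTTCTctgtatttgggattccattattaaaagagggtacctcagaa
The Ces1b run is shared with a probe of its relative Ces1c, and the Psca, Camk2b and second Unc93a2 runs with probes of Arfgap1, Il1f10 and Wipf2, genes of other families. No run of this length was found in the first Unc93a2 probe or in the Cryaa and Syt15 probes shown.

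According to the table, 3 genes (Cryaa, Psca and Adcy1) were higher and 7 lower on the KO-labelled arrays, all by at least 2-fold in both treatments. Over all genes above background, 2.31% of 24900 met the same rule in the table (0.695% higher and 1.62% lower). By the same rule Cryaa and Adcy1 were higher and Tmem212, Ces1b and Unc93a2 lower in the scanner files, which is 5 of 10 against 1.63% of 25119 genes (0.947% higher and 0.685% lower). Taken by treatment the members past 2-fold are the same, against 5.14% of genes in controls and 5.79% after challenge in the table, and 5.98% and 8.16% in the scanner files. The members were chosen on these contrasts, so nothing is read from either share. These 5 genes are the only members at least 2-fold different in both treatments of both sources, where 23 of 23697 genes were (0.0971%, with 0.038% higher and 0.0591% lower). All members except Prim2 kept 1 sign in the 4 comparisons, as did 21.4% of all genes. The median size of the difference in controls was 3.32 for the members and 0.15 for all genes in the table, and 0.90 for the members and 0.18 for all genes in the scanner files.

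**Figure D1:**
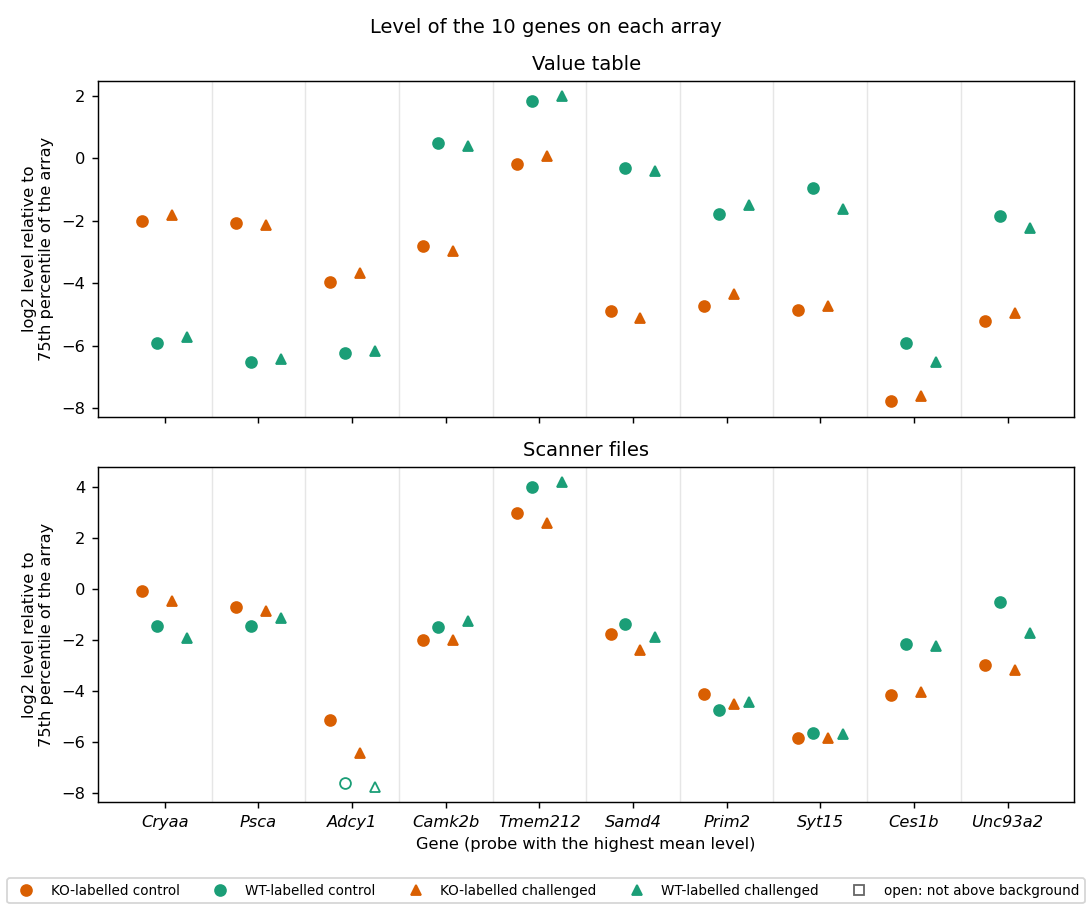
Log2 level of each of the 10 genes relative to the 75th percentile of its array, on the KO-labelled (orange) and WT-labelled (green) control (circles) and challenged (triangles) arrays, in the value table (top) and the scanner files (bottom); open symbols are not above background, and heights are not compared between genes. In the table the KO-labelled symbols of Cryaa, Psca and Adcy1 lie above the WT-labelled ones and those of the other 7 genes below, while in the scanner files the symbols of Syt15, Prim2, Samd4 and Psca lie close together.

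Adcy1, the calmodulin-stimulated adenylyl cyclase, has 1 probe, at mm9 chr11:7077699-7077755. Its table level was -3.95 on the KO-labelled and -6.24 on the WT-labelled control, and -3.68 on the KO-labelled and -6.17 on the WT-labelled challenged array. Both KO-labelled columns stand above both WT-labelled ones, by 4.88-fold in controls and 5.62-fold after challenge, in the contrast on which Adcy1 was picked. In bulk lung RNA more RNA per cell and more cells that make it cannot be told apart, here or for any gene below. The scanner intensity was 52.5 on the KO-labelled and 10.3 on the WT-labelled control, and 22.7 on the KO-labelled and 8.29 on the WT-labelled challenged array. Neither WT-labelled reading was well above background, so Adcy1 was higher by at least 5.52-fold in controls and by at least 2.50-fold after challenge. These bounds set the bright array against the higher of the dim reading itself and the dimmest signal called well above background on that array. They rest on readings near background: with normexp background correction the scanner differences were 0.63 and 0.29 on the log2 scale and no longer met the 2-fold rule. Of the other adenylyl cyclases, 8 were above background in either source and none passed 2-fold with 1 sign in both treatments, for example Adcy4 (0.01 in controls and -0.41 after challenge in the table, -0.89 and -0.19 in the scanner files) and Adcy5 (0.31 and 0.32 in the table, 0.34 and 0.02 in the scanner files).

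Camk2b, the beta subunit of the calcium and calmodulin kinase, was lower on the KO-labelled arrays. The probe with the higher signal, at mm9 chr11:5869675-5869734, had a table level of -2.80 on the KO-labelled and 0.50 on the WT-labelled control, and of -2.96 on the KO-labelled and 0.39 on the WT-labelled challenged array, 9.85-fold and 10.2-fold lower. The coding probe printed above had table levels of -7.65 on the KO-labelled and -4.88 on the WT-labelled control, and -7.11 on the KO-labelled and -4.94 on the WT-labelled challenged array, 6.84-fold and 4.50-fold lower. Both probes thus placed the KO-labelled columns lower. The scanner differences had the same sign at a smaller size, -0.49 in controls and -0.76 after challenge for the first probe (spot error 0.20 each) and -0.47 and -0.62 for the coding probe (spot errors 0.28 and 0.29). None of them reached 2-fold. The sister subunits were nearly level in the table, with Camk2a at -0.17 and 0.32, Camk2d at 0.08 and -0.04, and Camk2g at 0.04 and -0.02. None of the 14 other kinase and calmodulin genes was 2-fold different in both treatments of a source. Camk4, a kinase of T cells and neurons, was 2.60 higher on the KO-labelled control in the scanner files, and -0.06 after challenge.

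Cryaa, the lens chaperone, was higher on every KO-labelled array by its brighter probe, at mm9 chr17:31818550-31818609. The table levels were -2.01 on the KO-labelled and -5.91 on the WT-labelled control, and -1.80 on the KO-labelled and -5.71 on the WT-labelled challenged array, 14.9-fold and 15.0-fold higher. The scanner levels were -0.08 on the KO-labelled and -1.44 on the WT-labelled control, and -0.46 on the KO-labelled and -1.93 on the WT-labelled challenged array, or 2.56-fold and 2.77-fold higher, with a spot error of 0.20 on each log2 difference. Both KO-labelled arrays thus lay above both WT-labelled ones in each source, in the contrast on which Cryaa was picked. The share of all genes for which this holds was not counted. The coding probe printed above, assigned to another transcript than the brighter one, was not above background on any table column. There the scanner files gave 0.71 in controls (spot error 0.38) and a difference of at least 2.27-fold after challenge, where the WT-labelled array was not well above background. Among crystallins and other small heat shock proteins, 17 were above background in the table and none was 2-fold different in both treatments. Of 15 in the scanner files only Hspb8, a heat shock protein of muscle, was, at 1.15 and 1.04. In the table Hspb8 lay the other way, at -0.67 and -0.77. Cryab, the partner of Cryaa in the lens, had 0.19 and -0.05 in the table and 0.06 and -0.03 in the scanner files.

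Psca, the Ly6 surface protein, had the largest higher difference of the table members and one of the smaller ones in the scanner files. Its table level was -2.07 on the KO-labelled and -6.50 on the WT-labelled control, and -2.14 on the KO-labelled and -6.43 on the WT-labelled challenged array, 21.6-fold and 19.6-fold higher. The scanner levels were -0.70 on the KO-labelled and -1.47 on the WT-labelled control, and -0.87 on the KO-labelled and -1.14 on the WT-labelled challenged array. They gave 1.71-fold and 1.20-fold, and the second, 0.27 on the log2 scale, is little more than its spot error of 0.20. Of 20 other genes of the family in each source, Ly6k, whose probe lies 80.7 kb from that of Psca, was the only one at least 2-fold different in both treatments in the table, 3.14 and 2.45 higher. Its scanner differences were 0.48 and 0.12, and Slurp1, 10.2 kb from Psca, was the only one past the rule, at -1.35 and -1.11 (-0.40 and -0.22 in the table). Squamous epithelium markers, a cell type in which Psca is found, had a summed level of 3.66 on the KO-labelled and 4.21 on the WT-labelled control and of 3.24 on the KO-labelled and 4.05 on the WT-labelled challenged column of the table, in units of the 75th percentile, with Dsg3, Sprr3 and Krtdap not above background and 6 to 8 of 12 above it. Ivl, involucrin of the cornified envelope, was above background on the WT-labelled columns only, and was at least 3.0-fold lower in controls and at least 1.69-fold lower after challenge. On the scanner arrays the sum was 55.9 on the KO-labelled and 60.9 on the WT-labelled control, and 52.6 on the KO-labelled and 61.4 on the WT-labelled challenged array, with 9 to 11 of 12 above background and Ivl not above it on any. Their part in the Psca result was not tested.

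Unc93a2 gave different answers by probe. The probe used for the gene, printed first above, had table levels of -5.20 on the KO-labelled and -1.86 on the WT-labelled control, and -4.94 on the KO-labelled and -2.22 on the WT-labelled challenged array, 10.1-fold and 6.57-fold lower. Its scanner levels were -3.00 on the KO-labelled and -0.52 on the WT-labelled control, and -3.20 on the KO-labelled and -1.72 on the WT-labelled challenged array, 5.56-fold and 2.78-fold lower with spot errors of 0.20 on the log2 scale. Both sources put the KO-labelled arrays lower with this probe. The second printed probe, in the same transcript, had differences of -0.45 and 0.29 in the table and 0.39 and -0.20 in the scanner files (spot errors 0.21 and 0.22). The remaining one, at mm9 chr17:7568098-7568157, was above background on all 4 scanner arrays, with 0.13 and 0.07, and on no table column. Neither showed a 2-fold difference. The files assign all 3 probes to 1 accession but place the first 6.01 Mb from the nearest of the others, which lie 12.7 kb apart, so the lower signal belongs to that probe and is not shown for the rest of the gene. Its relatives had small differences: Unc93a, -0.27 and 0.06 in the table and 0.49 and 0.16 in the scanner files, and Unc93b1, -0.17 and -0.10 in the table and 0.02 and 0.02 in the scanner files.

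Syt15 was lower on the KO-labelled columns of the table at both its probes. The probe at mm9 chr14:35043301-35043360 had levels of -4.85 on the KO-labelled and -0.95 on the WT-labelled control, and -4.74 on the KO-labelled and -1.63 on the WT-labelled challenged array, 15.0-fold and 8.61-fold lower. The coding probe printed above is assigned to another transcript than this one. It was above background only on the WT-labelled columns, and was at least 10.9-fold lower in controls and at least 5.27-fold lower after challenge. On the scanner arrays the first probe had differences of -0.19 and -0.15, under the spot errors of 0.24 and 0.25, and the coding probe was above background on the WT-labelled challenged array only, at least 1.33-fold lower on the KO-labelled one. Neither scanner probe thus showed a 2-fold Syt15 difference in both treatments. Among other synaptotagmins, Syt10 was the only one at least 2-fold different in both treatments, and it did so with opposite signs, -1.67 and -1.31 in the table and 1.66 and 1.36 in the scanner files. Syt13 was 4.32 higher on the KO-labelled control of the scanner files and 0.70 after challenge, and Syt17 was 0.81 and 1.01 higher in the table.

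Tmem212, at mm9 chr3:27765044-27765103, was lower on every KO-labelled array of both sources. Its table levels were -0.18 on the KO-labelled and 1.84 on the WT-labelled control, and 0.08 on the KO-labelled and 1.99 on the WT-labelled challenged array, 4.05-fold and 3.75-fold lower. The scanner levels were 2.99 on the KO-labelled and 4.01 on the WT-labelled control, and 2.60 on the KO-labelled and 4.18 on the WT-labelled challenged array, 2.03-fold and 3.0-fold lower with a spot error of 0.20 on the log2 scale. This is the contrast on which Tmem212 was picked, and the share of all genes with such a separation was not counted. None of 20 ciliated cell markers was 2-fold different in both treatments of a source, and all 20 were above background on every array. Their median difference was 0.17 in controls and 0.20 after challenge in the table, and -0.27 and -0.12 in the scanner files. Their summed level was 53.7 on the KO-labelled and 47.6 on the WT-labelled control and 55.4 on the KO-labelled and 49.1 on the WT-labelled challenged column of the table. On the scanner arrays it was 178.2 on the KO-labelled and 191.9 on the WT-labelled control, and 193.5 on the KO-labelled and 197.8 on the WT-labelled challenged array. Foxj1, the regulator of motile cilia, had -0.20 and 0.03 in the table and -0.37 and -0.07 in the scanner files.

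Ces1b had 1 probe, close to background in the table. Its levels there were -7.77 on the KO-labelled and -5.90 on the WT-labelled control, and -7.61 on the KO-labelled and -6.51 on the WT-labelled challenged array, 3.68-fold and 2.15-fold lower. The scanner levels were -4.14 on the KO-labelled and -2.14 on the WT-labelled control, and -4.05 on the KO-labelled and -2.22 on the WT-labelled challenged array, 4.0-fold and 3.55-fold lower with spot errors of 0.21. Ces1b is the member whose differences were nearest in size in the 2 sources, and the KO-labelled arrays were lower in all 4 comparisons. The files give its probe no position. It was picked as lying outside chromosome 8, but the RefSeq gene table places Ces1b on chromosome 8 with the other Ces1 genes. The other carboxylesterases included none that was 2-fold different in both treatments, with 10 above background in the table and 13 in the scanner files. Ces1d, an esterase abundant in lung, had 0.08 and -0.04 in the table and -0.12 and -0.12 in the scanner files. Ces1c, which shares the printed run, was above background on 1 table column, the KO-labelled challenged one. It was at least 3.39-fold higher there than on the WT-labelled challenged column, but had -0.85 and -0.55 in the scanner files.

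Prim2, at mm9 chr1:33510733-33510792, was the member without a common sign. Its table levels were -4.71 on the KO-labelled and -1.79 on the WT-labelled control, and -4.34 on the KO-labelled and -1.51 on the WT-labelled challenged array, 7.59-fold and 7.15-fold lower. The scanner levels were -4.13 on the KO-labelled and -4.74 on the WT-labelled control, and -4.49 on the KO-labelled and -4.42 on the WT-labelled challenged array, with differences of 0.61 and -0.07 (spot error 0.21 each). The scanner control pair thus lay opposite to the table. The partner subunit Prim1 had -0.13 and 0.18 in the table and 0.51 and -0.47 in the scanner files. The 11 other primase and replicative polymerase genes had medians of 0.05 and 0.13 in the table and 0.48 and -0.22 in the scanner files, and none was 2-fold different in both treatments. In the same scanner control pair the median of 14 cell cycle genes was 1.23. Their summed level was 41.4 on the KO-labelled and 25.7 on the WT-labelled control. On the challenged arrays it was 27.0 on the KO-labelled and 34.4 on the WT-labelled one. The 12 thymocyte markers, all above background on every scanner array, had a summed level of 32.1 on the KO-labelled and 5.14 on the WT-labelled control, and 5.36 on the KO-labelled and 4.21 on the WT-labelled challenged array. Of these, Rag1, Rag2, Dntt, Cd8b1, Themis and Tcf7 were at least 2-fold higher in both treatments, Rag1 by 5.80 and 2.45. The table had neither shift: the thymocyte sum was 6.10 on the KO-labelled and 7.87 on the WT-labelled control and 5.71 on the KO-labelled and 7.44 on the WT-labelled challenged column, with Rag1 and Rag2 above background on none, and the cell cycle median in controls was -0.30. The part of these markers in the Prim2, Camk4 and Syt13 values was not tested.

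Samd4, at mm9 chr14:47721800-47721859, had the largest lower difference of the table members. Its table levels were -4.89 on the KO-labelled and -0.32 on the WT-labelled control, and -5.10 on the KO-labelled and -0.41 on the WT-labelled challenged array, 23.8-fold and 25.8-fold lower. The scanner levels were -1.79 on the KO-labelled and -1.39 on the WT-labelled control, and -2.39 on the KO-labelled and -1.90 on the WT-labelled challenged array, 1.31-fold and 1.41-fold lower with a spot error of 0.20 on the log2 scale. The sign is shared, but the scanner size is about that of the treatment response given below. Of the related Smaug, Nanos and CCR4-NOT genes, 15 were above background in the table and 14 in the scanner files. None passed 2-fold with 1 sign in both treatments. In 1 treatment of the table some did: Nanos2 was at least 4.28-fold lower on the KO-labelled challenged column, and the highest control difference was 1.60. The paralog Samd4b had 0.01 and 0.08 in the table and -0.27 and 0.21 in the scanner files, and Nanos1, a translational repressor, -0.60 and -0.78 in the table and -0.26 and -0.17 in the scanner files.

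**Figure D2:**
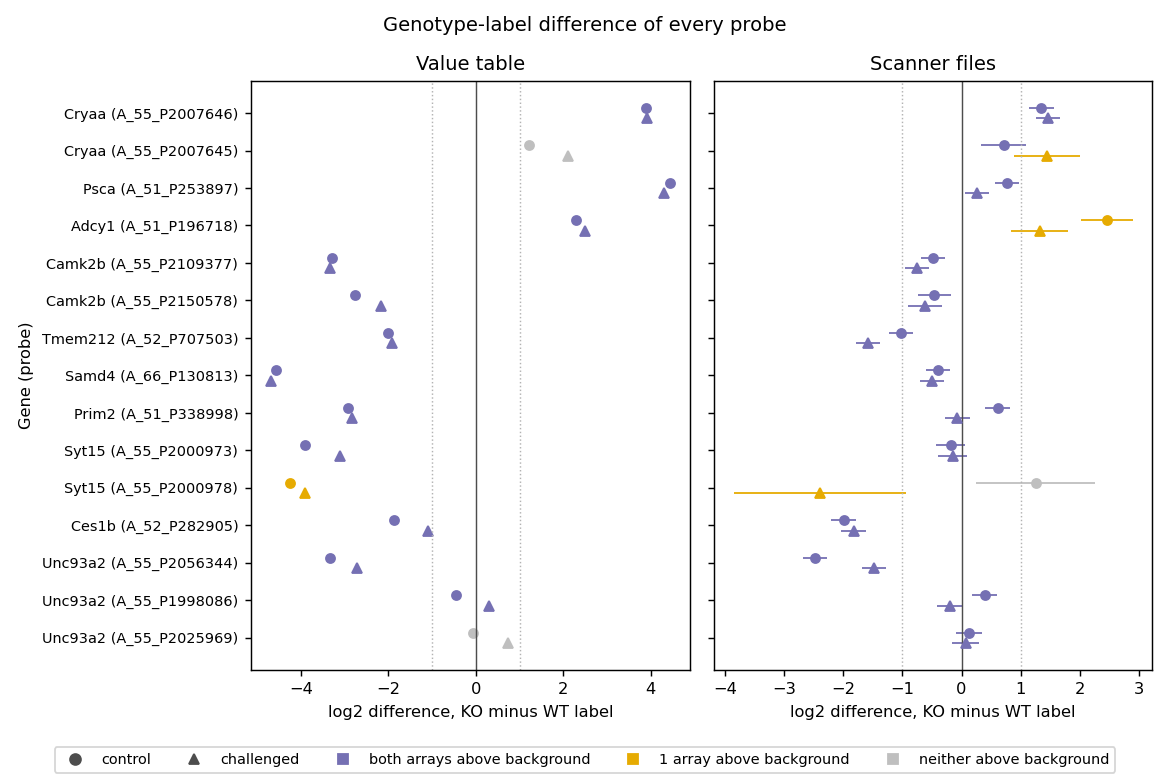
Log2 difference of the KO-labelled minus the WT-labelled array for all 15 probes of the 10 genes, in controls (circles) and after challenge (triangles), in the value table (left) and the scanner files (right, bars are the Agilent spot error); dotted lines mark 2-fold and colour tells how many of the arrays compared were above background. The table differences run from -4.69 to 4.43 for the probes used, and the other Unc93a2 probes lie near 0 in both sources.

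Of the members with more than 1 probe above background, Camk2b and Syt15 had every such probe at least 2-fold lower in both treatments of the table, and Unc93a2 did not. This was so for 42 of the 124 genes with several such probes and at least 1 past the rule (33.9%). On the scanner arrays neither Cryaa nor Unc93a2 had all its probes past the rule, against 16 of 130 such genes (12.3%).

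The members' table and scanner differences did not scale together. Psca and Samd4, with sizes above 4 in the table, had scanner sizes of 0.27 to 0.78, and Ces1b, with the smallest table sizes, had scanner values of -2.00 and -1.83. The gap between the treatments had a median of 0.13 and a highest value of 0.80 (Syt15) in the table. In the scanner files the median was 0.39 and the highest value 1.14 (Adcy1). The members were picked for differences in both treatments, so nothing is read from these gaps. The gap over all genes was not counted.

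**Figure D3:**
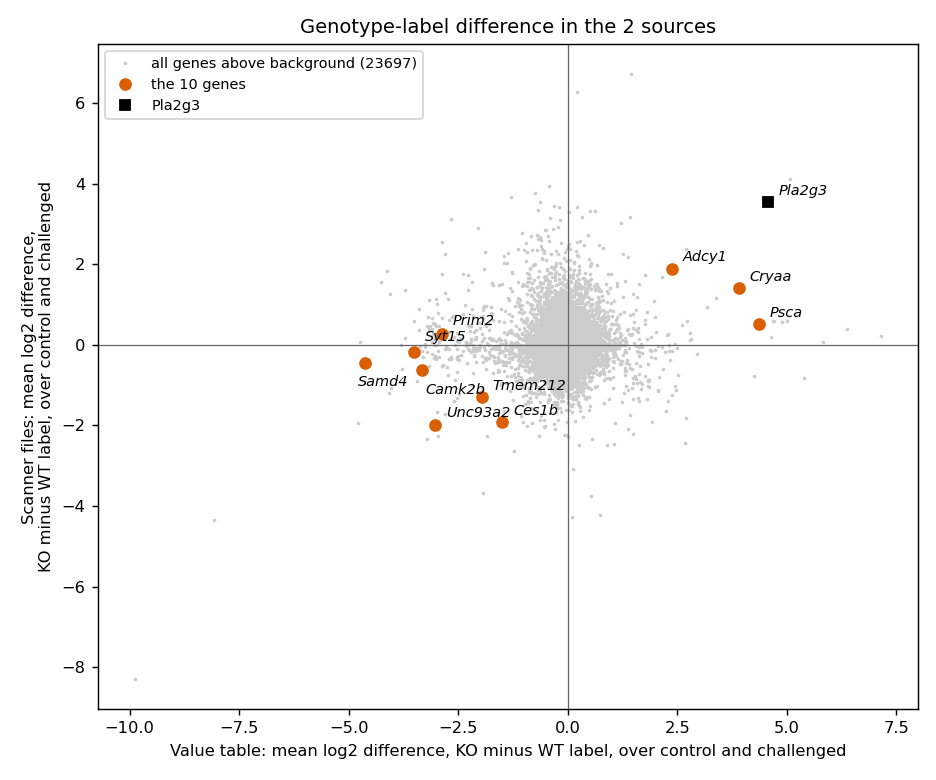
Mean log2 difference over control and challenged, KO-labelled minus WT-labelled, in the value table (horizontal) against the scanner files (vertical) for 23697 genes (grey), the 10 genes (orange) and Pla2g3 (black). Adcy1 and Cryaa lie high in both sources, Unc93a2, Ces1b and Tmem212 low in both, and Psca, Samd4, Camk2b, Syt15 and Prim2 lie far from 0 in the table but within 1 of it in the scanner files.

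Camk2b and Adcy1 lie on chromosome 11 with Pla2g3, their probes 2.48 Mb and 3.68 Mb from its own on mm9. Of 97 genes with a probe within 5 Mb of Pla2g3, 4 passed 2-fold with 1 sign in both treatments of the table (Pla2g3, the transcript listed as ENSMUST00000044682, Camk2b and Adcy1) and 4 in the scanner files (Pla2g3, ENSMUST00000044682, Adcy1 and Inpp5j), 4.12% of the window in each source. Over all genes the shares were 2.31% in the table and 1.63% in the scanner files. The window is centred on Pla2g3 and holds 2 members picked on this contrast, so nothing is read from its share. The transcript has its probe 5.19 kb from that of Pla2g3 and was 4.64 and 5.53 higher in the table and 5.27 and 2.94 higher in the scanner files. Inpp5j, a phosphoinositide phosphatase whose probe is 0.28 kb from that of Pla2g3, had -1.73 and -1.98 in the scanner files and -0.12 and -0.34 in the table. Tmed4, also in the window, kept 1 sign in all 4 comparisons with a smallest size of 0.66, and Camk2b did so with 0.49. The median size in controls over the window was 0.16 in the table and 0.18 in the scanner files, so most genes between Pla2g3 and Adcy1 differed little.

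**Figure D4:**
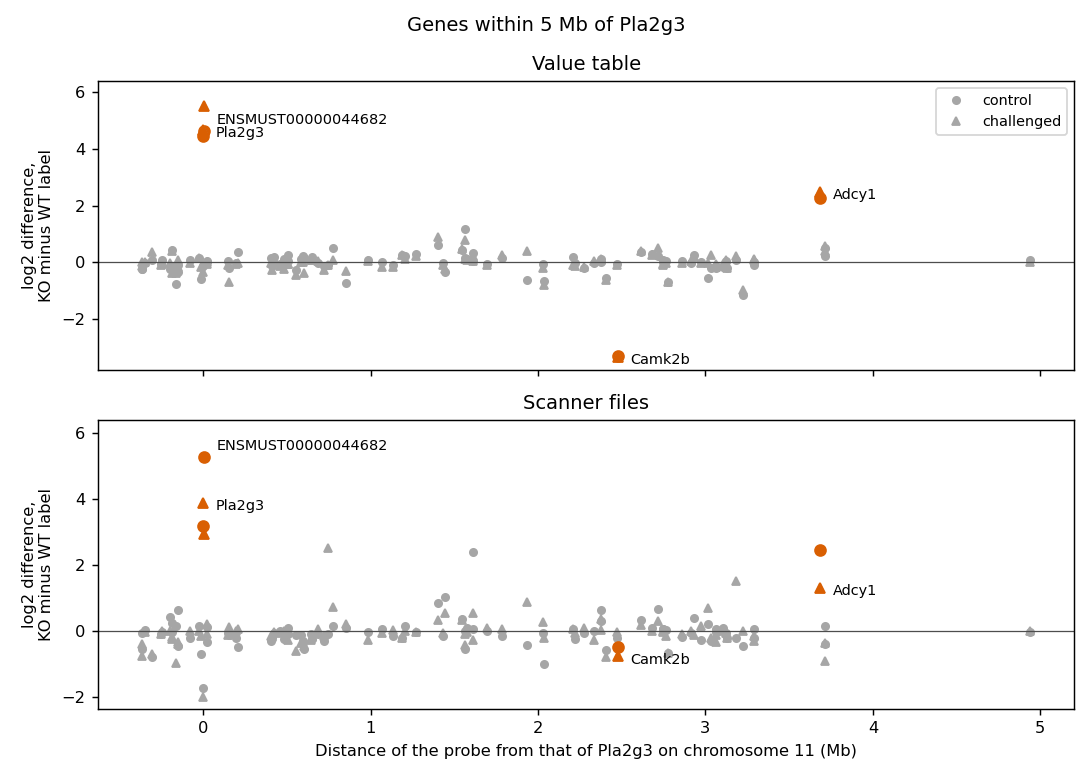
Log2 difference of the KO-labelled minus the WT-labelled array for the 97 genes with a probe within 5 Mb of that of Pla2g3, by distance in Mb along chromosome 11, in controls (circles) and after challenge (triangles), for the value table (top) and the scanner files (bottom). Pla2g3, the neighbouring transcript ENSMUST00000044682 and Adcy1 are at least 2-fold higher in both treatments of both sources, and Camk2b is the lowest point of the table panel.

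Around the members that have a position, 212 other genes had a probe within 1 Mb. None was at least 2-fold different in both treatments of both sources, 9 were in the table (4.25%) and 1 in the scanner files (0.472%). Beside Ly6k and Slurp1 near Psca, 5 of these lay near Syt15 in the table: Anxa8 (-1.45 and -1.39), Gm3219 (-3.10 and -3.57), Sncg, a synuclein (-1.36 and -1.74), Ptpn20, a tyrosine phosphatase (-2.30 and -1.28), and A930038B10Rik (2.80 and 3.10). Slc22a2, an organic cation transporter near the first Unc93a2 probe, had -1.50 and -2.55 in the table. The other two were Gm15217 near Samd4 (1.65 and 1.46) and the transcript ENSMUST00000027303 near Prim2 (-1.97 and -2.42). For the members that have a position, the only neighbour past the rule in the scanner files was Slurp1, opposite in sign to Psca. The all-gene share there is low too, so nothing is read from this count. Ces1b, whose probe has no position, was not examined.

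The genes outside the members with the pattern most like theirs were ranked by the smallest size over both treatments and both sources, that is over 4 comparisons. Beyond Pla2g3 and ENSMUST00000044682 (smallest size 2.94), the first genes with a symbol of their own on the higher side were Zfp963 (smallest size 2.35), Lpcat2 (1.73), Ocel1 (1.67) and Calr3 (1.39), all on chromosome 8, then Comp (0.85) and Zfp868 (0.82), which fell short of 2-fold. The unnamed 2210407C18Rik (1.04) lies between Calr3 and Comp. Cryaa (1.36) and Adcy1 (1.32) come after Calr3. On the lower side the symbols were Trim12a (7.87), Tmem221 (1.63), B3gnt3 (1.61), Serpina9 (1.57), Pttg1 (1.39) and Trim34a (1.29), beside which Unc93a2 had 1.48, Ces1b 1.1 and Tmem212 1.02. The unnamed transcript ENSMUST00000138557 (3.63) and Gm42102 (1.78) come between Trim12a and Tmem221. Of the 23 genes past 2-fold in all 4 comparisons 7 had a probe on chromosome 8, of 1152 measured there, 6 on chromosome 11 (of 1773), 3 on chromosome 7 (of 1808) and 2, Cryaa and Unc93a2, on chromosome 17 (of 1136). The 1 gene among them without a placed probe was Ces1b, which the RefSeq gene table puts on chromosome 8.

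The challenge contrast was not used to choose the members. It shares its arrays with the genotype contrasts, so the differences of the treatments are not independent of them. In the table none of the 10 genes was at least 2-fold different after challenge in either genotype, where 4.63% of all genes were in the KO-labelled pair and 3.45% in the WT-labelled pair. Their differences, challenged minus control, ran from -0.21 (Samd4) to 0.37 (Prim2) in the KO-labelled pair, with a median of 0.19, and from -0.69 (Syt15) to 0.28 (Prim2) in the WT-labelled pair, with a median of -0.01. The medians over all genes were 0.02 and 0.01.

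On the scanner arrays 1 member passed 2-fold in each pair, against 8.73% of all genes in the KO-labelled and 4.43% in the WT-labelled pair. Adcy1 was 2.50-fold lower on the challenged than on the control KO-labelled array (-1.32, spot error 0.29), with both WT-labelled readings not well above background. In the table its KO-labelled pair lay the other way, at 0.27. Unc93a2 was 2.30-fold lower on the challenged than on the control WT-labelled array (-1.20, spot error 0.20) and had -0.20 in the KO-labelled pair. This too belonged to the first probe, the second having 0.32 in the WT-labelled pair. Samd4 had -0.61 in the KO-labelled and -0.51 in the WT-labelled pair, and Cryaa -0.38 and -0.49, each beyond its spot error of 0.20. In the table Cryaa lay the other way, at 0.21 and 0.20, and Samd4 had the same sign, at -0.21 and -0.10.

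The challenge effect averaged over the genotypes was fitted with limma on all 4 arrays of a source, an additive model with 1 residual degree of freedom, in which the spread is the disagreement between the genotypes. No member and no gene passed an adjusted p of 0.05 in either source, of 26064 genes fitted in the table and 26371 in the scanner files. The lowest adjusted p by limma was 0.477 in the table and 0.514 in the scanner files, and 2287 and 2521 genes had an unadjusted p under 0.05. Among the members these were Prim2 in the table (0.33, higher in both pairs, limma p 0.032, adjusted p 0.567), and Cryaa (-0.44, limma p 0.0377) and Samd4 (-0.56, limma p 0.0204) in the scanner files, lower in both pairs, with an adjusted p of 0.514 each. The table effect of Cryaa had the other sign (0.21). A missed threshold in a design of this size does not show that the genes did not respond.

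**Figure D5:**
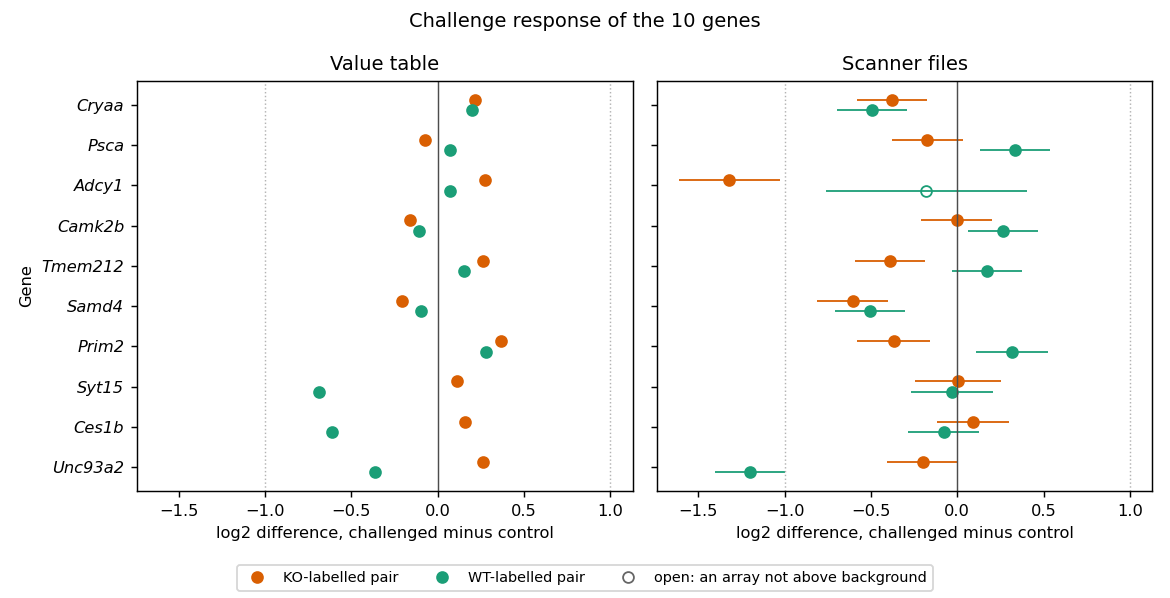
Log2 difference of the challenged minus the control array for the 10 genes in the KO-labelled (orange) and WT-labelled (green) pair, in the value table (left) and the scanner files (right, bars are the Agilent spot error); dotted lines mark 2-fold and the open symbol has an array that is not above background. The table points run from -0.69 to 0.37, and in the scanner files only Adcy1 in the KO-labelled pair and Unc93a2 in the WT-labelled pair lie past 2-fold.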

How the data were processed

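Spot intensity in the scanner files was read with Agilent Feature Extraction 11.5.1.1, per the file headers and the submitters' processing notes, on 44397 spots per array, 43020 of them not controls, with probe positions on mm9. In the authors' deposited value table each probe has a signal on a linear scale, with no stated normalization. Per the labels, 200 ng of pooled RNA was labelled with Cy3.

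Scanner intensity was taken to log2 minus the array's 75th percentile, and the table signal to log2 with nothing subtracted, since its 75th percentile already lies near 1. Spots were called above background by Agilent's flag, or in the table above 5 times the median of 153 negative controls. That rule gave Agilent's call for 99.2% of scanner spots. On each array 79.2% to 81.9% of scanner spots and 79.8% to 82.1% of table probes were above background. No spot was saturated, and 20 uneven ones were left out. The 39429 probes were named by RefSeq accession (28330), by symbol (2204) or as in the files (8895). A gene is its probe with the highest mean level in a source. For a count of genes past 2-fold, a gene had to be above background on 1 or more of the arrays compared.

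The plan had taken the table as an alternative to the scanner files. Since its columns did not follow the scanner arrays, both are reported, a choice made after the data were seen. The members, the related-gene and marker lists and the sequences shown were chosen with earlier results of these data known. The genes named are the members, Pla2g3, up to 3 per related-gene list by mean size plus every one past the rule, up to 8 near Pla2g3 (1 of them is not reported here) and up to 6 per direction by likeness, counting only genes with a symbol of their own. Cryab, Camk2a, Camk2d, Camk2g, Ces1d, Prim1, Samd4b, Foxj1, other genes and transcripts with a like pattern, cell type markers and neighbours of members were added after their values were seen. The challenge effect was fitted with limma 3.58.1 in R 4.3.3 (lmFit, eBayes, Benjamini-Hochberg over all genes above background on at least 1 array), after tests on simulated data. Python 3.11.15, pandas 2.3.3, numpy 2.4.6 and matplotlib 3.10.9 did the rest. Precision is limited by the number of arrays, 1 per group.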

Additional observations from a re-analysis of the deposited data

Results flagged for a closer look

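Responses of the KO-labelled and WT-labelled pairs lay in opposite directions, each by more than the probe's spot error in the scanner files, for 1 of the 10 genes in each source. The same was so for 2.78% of 24715 genes in the table and 5.84% of 25052 in the scanner files. In the table Unc93a2 had a challenged minus control difference of 0.26 in the KO-labelled pair and -0.36 in the WT-labelled pair. In the scanner files Prim2 had -0.37 in the KO-labelled pair and 0.32 in the WT-labelled pair. With 1 pair per genotype the difference between the pairs was not tested. Neither gene did so in the other source: Unc93a2 had -0.20 and -1.20 in the scanner files, and Prim2 0.37 and 0.28 in the table.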

How the results depend on the processing

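Of the members' 40 differences in each source, quantile normalization and median scaling left all within the scanner spot error of the values reported. The table has no error, so its 40 differences were judged by the scanner one. Between the sources 9 of these differences had opposite signs, 7 of them beyond the scanner spot error: the Prim2 genotype difference in controls, 5 responses in the KO-labelled pair (Cryaa, Adcy1, Tmem212, Prim2 and Unc93a2) and 3 in the WT-labelled pair (Cryaa, Adcy1 and Camk2b). Of differences of 2-fold or more, the sign turned in the other source for Adcy1 (challenged minus control in the KO-labelled pair, 0.27 in the table) and with the other Unc93a2 probes (in the scanner files 0.39, 0.13 and 0.071 between genotypes and 0.32 in the WT-labelled pair, and 0.29 and 0.73 between genotypes in the table). Members past 2-fold in both treatments of the scanner files numbered 4 with normexp, with the mean of probes, with all 4 arrays above background and with 3 times the spot error added, 1 (Ces1b) at 3-fold, and 10 in the table. With the mean of probes Unc93a2 had -0.65 and -0.53 in the scanner files, and -1.29 and -0.56 in the table, where 9 members passed.

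The all-gene counts moved more. For genotype in controls, after challenge, and challenge in the KO-labelled and WT-labelled pairs, the scanner counts were 474, 499, 725 and 194 with normexp, 878, 1072, 1277 and 493 with all 4 arrays above background, 3446, 4343, 4803 and 2772 at 1.5-fold, and 701, 1029, 1187 and 520 at 3-fold. The last pair had 739 with 3 times the spot error, and the KO-labelled pair 1161 in the table. Table counts were 718, 750, 582 and 334 with all 4 arrays, 2823, 2910, 2702 and 1857 at 1.5-fold, and 730, 844, 551 and 479 at 3-fold. Without a filter they were 2033, 1918 and 1536, the count after challenge staying within 1.5 times. Genes alike in both treatments numbered 126, 262, 1195 and 110 under these 4 scanner settings, and 1135 and 314 at 1.5-fold and 3-fold in the table. With normexp the share of higher calls was 77.0%, 70.9%, 60.8% and 69.6%, against 60.2%, 51.5%, 50.2% and 54.2%. The limma counts of 0 became 1 (Cxcl5) in the scanner files with normexp and with a variance trend, and 117 in the value table with a variance trend, none of them a member. Members' adjusted p ranged from 0.24 to 0.999 over the table settings and from 0.273 to 0.988 over the scanner settings.

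No paired analysis was possible because each group has 1 array with no replicate number to pair by (the limma fit takes genotype as a term, so its challenge effect is the mean of the within-genotype differences), and for the same reason no array was left out. Alternatives on the table and the counts over both treatments were chosen after seeing the data. Adcy1 in the scanner files and Ces1b, the coding Cryaa and Syt15 probes and 2 Unc93a2 probes in the table lie near background, which limits their values.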
